A study of Mus musculus with 9 samples.

Results

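Hspg2 encodes perlecan, the large heparan sulfate proteoglycan of basement membranes. RNA peaks of Polycomb repressive complex 2 (PRC2) were taken as Hspg2 peaks where they lay on the plus strand of chromosome 4 with a summit from 137024000 to 137127000 in the mouse build mm9. This interval of 103 kb held 59 of the 49266 peaks in the deposited lists. It was chosen by the number of plus-strand peaks, so that number is a description and was not tested. The interval held the densest 50-kb window of the series, with windows ranked by the library with the fewest peaks.

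The libraries came from day 7 of differentiation of EL 16.7, a female embryonic stem cell line that is a hybrid of CAST/Ei and 129/Sv/Jae mice. All cells stably expressed BirA, which puts biotin on the Avi tag. The 2 EZH2 libraries carried Avi-GFP-mEzh2 and the 2 SUZ12 libraries Avi-GFP-mSuz12, and each library was made from a single clone of its own. In dCLIP, RNA is crosslinked to protein with UV light, trimmed with RNase, and recovered with the biotinylated protein on streptavidin under stringent washing. The lists of EZH2 replicates 1 and 2 held 10468 and 13267 peaks, and those of SUZ12 held 11580 and 13951. The mock library with BirA and an empty vector was not analysed here, so no background level stands beside the values.

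PRC2 methylates lysine 27 of histone H3 and keeps developmental genes repressed. EZH2 is its catalytic subunit, and SUZ12 is a core subunit that the complex needs for its activity. PRC2 also binds many RNAs, nascent transcripts among them. Perlecan has a long protein core with laminin-like and immunoglobulin-like domains, is secreted, binds laminin, collagen IV and growth factors, and is made by early embryonic epithelia that lay down a basement membrane.

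Every library had peaks along Hspg2. EZH2 replicate 1 had 16 peaks, EZH2 replicate 2 had 12, SUZ12 replicate 1 had 18 and SUZ12 replicate 2 had 13. The ranges of the proteins overlapped, with a mean of 14 ± 2.83 for EZH2 and 15.5 ± 3.54 for SUZ12 (SD, n = 2 each). Scaled to 10000 peaks of the library, the numbers were 15.3, 9.04, 15.5 and 9.32 in the same order. On this scale both replicates numbered 1 were higher than both replicates numbered 2, and the proteins had means of 12.2 and 12.4. Of all plus-strand peaks of chromosome 4 in a library, Hspg2 held 4.43%, 2.83%, 4.27% and 2.62%.

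The peaks were short and spaced apart. They covered 2029, 1706, 3167 and 2279 bases in EZH2 replicates 1 and 2 and SUZ12 replicates 1 and 2, which is 1.97%, 1.66%, 3.07% and 2.21% of the interval. The median distance between neighbouring summits of a library was 6.42, 6.52, 4.71 and 6.43 kb. Joined over the libraries, the peaks formed 46 sites that spanned 8106 bases, or 7.87% of the interval. Hspg2 was thus dotted with peaks over its length and no single block of peaks made up the number.

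**Figure D1:**
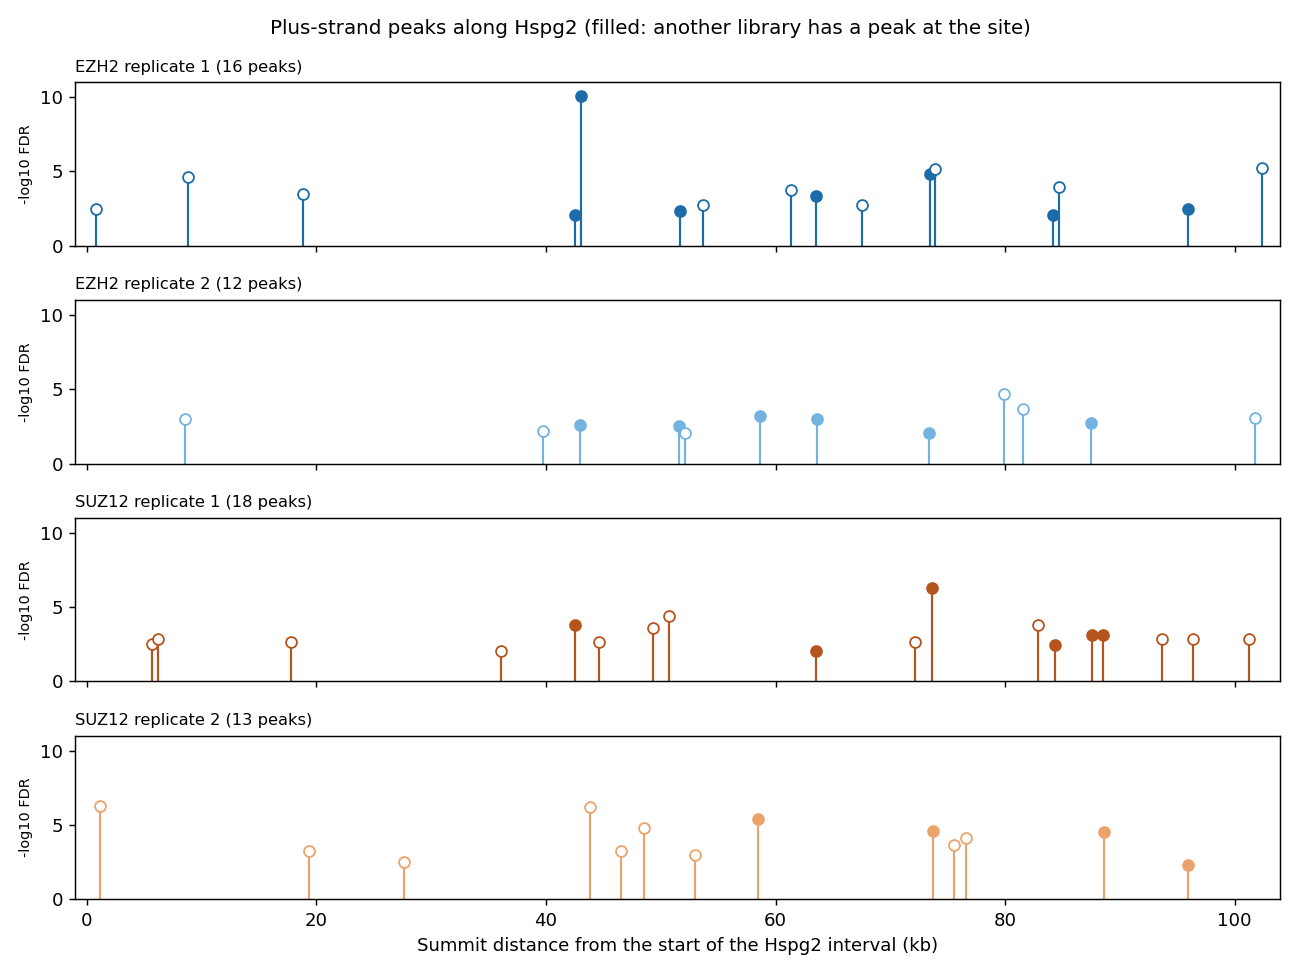
Each panel is a library, the horizontal axis is the distance of a peak's summit from the start of the interval in kb, and the height is the -log10 of the peak's false discovery rate (FDR) in the deposited list. Filled points mark peaks at a site where another library also has a peak, and these lie beyond 40 kb in all 4 libraries.

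The spread along the transcript was uneven. The first 40 kb held 3, 2, 4 and 3 peaks in EZH2 replicates 1 and 2 and SUZ12 replicates 1 and 2, and the remaining 63 kb held 13, 10, 14 and 10. Per 10 kb this was 0.75, 0.5, 1 and 0.75 peaks before the boundary and 2.06, 1.59, 2.22 and 1.59 after it. In each of the 4 libraries the later part was denser. The boundary was placed after the positions were seen, and the choice of the interval favoured its middle, so no test is given.

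Summed over the libraries, successive stretches of 10 kb held 6, 3, 1, 2, 9, 8, 5, 9, 9 and 4 peaks, and the last 3 kb held 3. The stretches from 40, 50, 70 and 80 kb had a peak in each of the 4 libraries, and so did the first 10 kb. The stretch from 20 to 30 kb had a single peak, from SUZ12 replicate 2. The longest distance between neighbouring summits, over all libraries, was 8.97 kb and ran from 8.78 to 17.8 kb, and another of 8.44 kb was nearly as long. The 50-kb window that led to the choice of Hspg2, at 137050001 to 137100000, held 32 of the 59 peaks (54.2%) in 48.5% of the interval, and 27 peaks lay outside it.

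**Figure D2:**
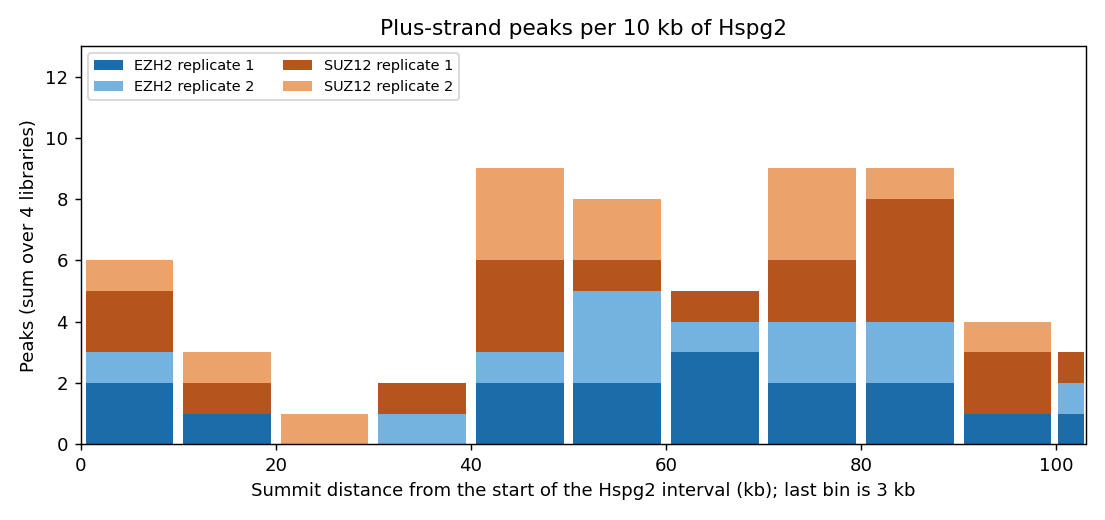
Bars give the number of plus-strand peaks, summed over the 4 libraries and coloured by library, in successive stretches of 10 kb from the start of the interval (the last is 3 kb long). The stretches between 10 and 40 kb hold 1 to 3 peaks and those between 40 and 90 kb hold 5 to 9.

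The median summit lay 62.5 kb from the start of the interval in EZH2 replicate 1, 61.1 kb in EZH2 replicate 2, 67.9 kb in SUZ12 replicate 1 and 53.0 kb in SUZ12 replicate 2. Both EZH2 values fell between the SUZ12 values. SUZ12 minus EZH2 was -1.36 kb (exact permutation test over libraries, two-sided p = 1, smallest possible 0.33). Without SUZ12 replicate 2 the difference was 6.06 kb, so the sign rested on that library.

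Near the edges of the interval, the first peaks lay 0.754, 8.54, 5.66 and 1.17 kb inside its start, and the nearest plus-strand peak before it was 973, 941, 996 and 194 kb away. At the other end the last peaks lay 0.651, 1.26, 1.74 and 7.03 kb inside, and the next plus-strand peaks 36.7, 28.9, 66.6 and 23.6 kb beyond. In EZH2 replicate 2 the gap across the end was no longer than its longest gap inside the interval, 31.2 kb, so by spacing alone the next peaks of that library do not stand apart. Peaks placed by any overlap instead of by summit gave the same 59.

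The strongest Hspg2 peak of each library lay at a different place. In EZH2 replicate 1 it was chr4:137066972-137067341, 43.0 kb from the start, with an FDR of 8.21e-11 that put it in the best 1.05% of its library. For EZH2 replicate 2 it was chr4:137103921-137104068, with an FDR of 2.02e-05, in the best 9.95%. SUZ12 replicate 1 had its strongest at chr4:137097372-137097757, with an FDR of 5.24e-07 in the best 3.22%, and SUZ12 replicate 2 at chr4:137024914-137025258, close to the start of the interval, with an FDR of 5.69e-07 in the best 4.23%. In 3 of the 4 libraries the strongest peak was also the widest, at 370, 386 and 345 bp. The exception was EZH2 replicate 2, whose widest peak, of 276 bp, was chr4:137063740-137064015.

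Of the 46 sites, 36 had a peak in 1 library, 8 in 2 libraries, 1 in 3 and 1 in all 4. Sites with peaks in at least 2 libraries were 10 of 46 (21.7%, 95% Wilson interval 12.3 to 35.6%), and over the 44277 sites of the series 8.08% were so. Those in at least 3 libraries numbered 2, with 2.13% over the series. The single site in all 4 stands beside 0.908%, and it was lost with a reciprocal overlap of 50%, with summits within 100 bp, with peaks set to 100 bp and in the better 50% of each list by FDR. Libraries with many peaks in a stretch overlap more readily and Hspg2 was chosen for that, so nothing is read from these shares. All 10 recurring sites lay beyond 40 kb, where they were 29.4% of 34 sites, and none of the 12 sites in the first 40 kb recurred.

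The site in all 4 libraries was chr4:137097363-137097785, 73.4 kb from the start and 423 bp long. Its FDR was 1.38e-05 and 0.00841 in EZH2 replicates 1 and 2 and 5.24e-07 and 2.43e-05 in SUZ12 replicates 1 and 2. The peaks did not stack on a common stretch. EZH2 peaks covered 137097363 to 137097440 and 137097367 to 137097465, SUZ12 replicate 2 covered 137097617 to 137097785, and the wide peak of SUZ12 replicate 1, 137097372 to 137097757, linked them. With 0 bases inside every peak and summits spread over 295 bp, the EZH2 peaks and the peak of SUZ12 replicate 2 did not overlap each other.

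The site in 3 libraries was more compact. It lay at chr4:137087498-137087666, 63.5 kb from the start, in EZH2 replicates 1 and 2 and SUZ12 replicate 1, with an FDR of 0.000424, 0.00101 and 0.00843. Its peaks were 169, 125 and 118 bp wide, had 115 bases in common and summits within 57 bp. All 3 FDR values were modest, and SUZ12 replicate 2 had no peak there.

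Of the 8 sites in a pair of libraries, 5 joined an EZH2 with a SUZ12 library. Over the series, 68.7% of 2637 sites in a pair of libraries did. At chr4:137082450-137082646, EZH2 replicate 2 (FDR 0.000655) and SUZ12 replicate 2 (FDR 3.70e-06) shared 169 bases. At chr4:137066488-137066767, EZH2 replicate 1 (FDR 0.00804) lay inside the wider peak of SUZ12 replicate 1 (FDR 0.000159). The remaining mixed sites were chr4:137108091-137108368, chr4:137111487-137111647 and chr4:137119889-137120010, and their weaker peak had an FDR of 0.00881, 0.00173 and 0.00471.

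The remaining 3 joined clones of the same protein. Both EZH2 clones and no SUZ12 clone had peaks at chr4:137066896-137067341 (FDR 8.21e-11 and 0.00269) and at chr4:137075552-137075740 (FDR 0.00475 and 0.00275). Only 23 and 11 bases were common to the peaks of these sites. Both SUZ12 clones and no EZH2 clone had peaks at chr4:137112508-137112748 (FDR 0.000731 and 2.78e-05), with 79 bases in common. In all, 7 of the 10 recurring sites had both proteins, and over the series 76.9% of 3578 recurring sites did. Of the 6 possible pairs of libraries, 4 join different proteins.

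Pair by pair, the EZH2 clones overlapped at 4 peaks, which is 25% of replicate 1 and 33.3% of replicate 2. The SUZ12 clones overlapped at 2 peaks, 11.1% of replicate 1 and 15.4% of replicate 2. EZH2 replicate 1 and SUZ12 replicate 1 overlapped at 4 peaks (25% and 22.2%), as many as the EZH2 clones. SUZ12 replicate 2 met each EZH2 library at 1 peak, 7.69% of its 13. The pairs between proteins thus ranged from 1 to 4 overlaps, and the pairs within proteins lay inside that range. Pairwise shares over the full lists were not computed, so nothing is read from these numbers.

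As a share of its own Hspg2 peaks, 43.8% of EZH2 replicate 1 (7 of 16, Wilson interval 23.1 to 66.8%), 50% of EZH2 replicate 2 (6 of 12, 25.4 to 74.6%), 33.3% of SUZ12 replicate 1 (6 of 18, 16.3 to 56.3%) and 30.8% of SUZ12 replicate 2 (4 of 13, 12.7 to 57.6%) lay at a recurring site. The shares over the full lists were 19.4%, 16.2%, 18.8% and 15.7%. The intervals cover counting error only. Of the 36 peaks at sites of a single library, 20 (55.6%) had a summit of another library within 1 kb. Over the series, 6772 of 40708 such peaks (16.6%) did. Over all 59 peaks, recurring ones included, it was 43 (72.9%), against 31.1% over the series. By library, in the order above, it was 82%, 70.2%, 77.6% and 70.3% in the other 9 leading windows described below. In the whole Hspg2 interval, which is longer than a window, it was 87.5%, 75%, 61.1% and 69.2%.

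How many sites recurred depended on the overlap asked for. With a reciprocal overlap of 50% it was 5 of 53, beside 5.49% over the series. A library left out takes its overlaps with it, so a lower number is largely built in. The number was 5 of 37 without EZH2 replicate 1 and 6 of 40 without EZH2 replicate 2. Without SUZ12 replicate 1 it was 6 of 35, and without SUZ12 replicate 2 it was 7 of 37. These are 13.5%, 15%, 17.1% and 18.9%, beside 6.54%, 6.72%, 6.31% and 6.75% over the series.

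Widths were not used to choose Hspg2. In EZH2 replicate 1 the Hspg2 peaks ran from 18 to 370 bp with a median of 105 bp, and all other peaks of that library had a median of 177 bp. EZH2 replicate 2 ran from 94 to 276 bp with a median of 116 bp against 188 bp. SUZ12 replicate 1 ran from 55 to 386 bp with a median of 135.5 bp against 151 bp, and SUZ12 replicate 2 from 99 to 345 bp with a median of 152 bp against 138 bp. Hspg2 peaks were thus narrower than the rest in 3 libraries, most so in both EZH2 clones, and wider in SUZ12 replicate 2.

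On the log2 scale, Hspg2 minus the rest was -0.75, -0.70, -0.16 and 0.14, a mean of -0.37 ± 0.43 (SD, n = 4; exact sign-flip permutation test, two-sided p = 0.25, smallest possible 0.13, adjusted p = 0.444 over 4 tests). The difference from the rest was not larger than the spread between libraries. It was -0.12 with mean instead of median widths and -0.24 without EZH2 replicate 1. For the whole interval against the peaks of the other 9 leading windows it was -0.20.

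The median width of Hspg2 peaks was 111 ± 7.78 bp in EZH2 and 144 ± 11.7 bp in SUZ12 (SD, n = 2), and the 4 library values did not overlap between the proteins. SUZ12 minus EZH2 was 0.38 on the log2 scale, 1.30-fold (exact permutation test, two-sided p = 0.33, the smallest that 2 clones each allow, adjusted p = 0.444). Over the full lists the order was the other way, with EZH2 peaks the wider. Relative to the rest of the library, Hspg2 peaks of SUZ12 stood 0.72 above those of EZH2 on the log2 scale (exact permutation p = 0.33, smallest possible), a contrast chosen after the values were seen. Among the better 50% of each list by FDR, the difference between the proteins was 0.10.

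Some peaks had extreme widths, and the share of such widths over the full lists was not computed. Of the 59 peaks, 4 were at most 60 bp wide, 3 in EZH2 replicate 1 and 1 in SUZ12 replicate 1, with an FDR from 0.00194 to 0.00881. The narrowest, chr4:137091559-137091576, spanned 18 bp and was found in EZH2 replicate 1. Another 5 were at least 300 bp wide, 1 in EZH2 replicate 1 and 2 in each SUZ12 library, with an FDR from 8.21e-11 to 0.000235. The wide peaks were all stronger than the narrow ones.

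**Figure D3:**
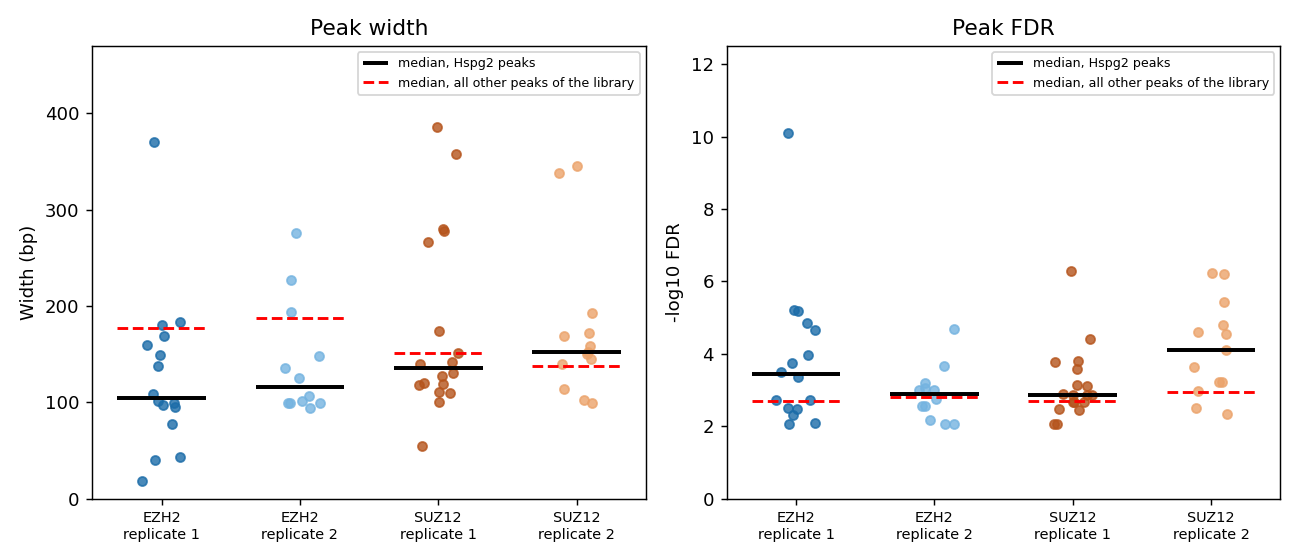
Points are Hspg2 peaks by library, with their width in bp on the left and the -log10 of their FDR on the right. Black bars are the medians of Hspg2 peaks and red dashed bars those of all other peaks of the same library; the Hspg2 median width lies below the rest in 3 libraries, and the Hspg2 median -log10 FDR lies above the rest in 4.

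The median Hspg2 peak had a lower FDR than the median of the rest in each library. The FDR ran from 8.21e-11 to 0.00881 in EZH2 replicate 1 with a median of 0.000374, from 2.02e-05 to 0.00854 in EZH2 replicate 2 with a median of 0.00137, from 5.24e-07 to 0.00845 in SUZ12 replicate 1 with a median of 0.00133, and from 5.69e-07 to 0.00471 in SUZ12 replicate 2 with a median of 7.88e-05. The medians of all other peaks were 0.00195, 0.00160, 0.00203 and 0.00112. The gap was small in EZH2 replicate 2. Of the 59 peaks, 39 belonged to the better 50% of their list, 10 to the best 10%, and 7 had an FDR below 1e-05. The share of the full lists below 1e-05 was not computed, so nothing is read from the last number.

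As median -log10 FDR, Hspg2 exceeded the rest by 0.722, 0.0827, 0.183 and 1.15, higher in 4 of 4 libraries, a mean of 0.535 ± 0.498 (SD, n = 4; exact sign-flip permutation test, two-sided p = 0.13, the smallest 4 libraries allow, adjusted p = 0.444). Against the peaks of the other 9 leading windows the mean for the whole interval turned to -0.234, but the libraries split. The median FDR of those windows was 0.000406, 0.000431, 0.000283 and 0.000120. Hspg2 was thus stronger in EZH2 replicate 1 and SUZ12 replicate 2 and weaker in EZH2 replicate 2 and SUZ12 replicate 1. The difference from the rest was 0.155 within the better 50% of each list by FDR and 0.329 without SUZ12 replicate 2. The p-values behind the FDR moved in steps: in 57 of 59 peaks the deposited p was a whole power of 1/2 to within 0.001 of its log2, from 7 to 41 halvings. That is 96.6%, and over the full lists the share was 97.5%, 97.9%, 97.7% and 97.6%.

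All peaks in the interval were on the plus strand, the strand of the rule. No minus-strand peak had its summit in the interval in any library, where 0 of 5095, 6541, 5633 and 6486 minus-strand peaks allow a share of up to 0.0589%, 0.0459%, 0.0533% and 0.0463%. On the plus strand, Hspg2 held 0.298% (Wilson interval 0.183 to 0.483%), 0.178% (0.102 to 0.312%), 0.303% (0.192 to 0.478%) and 0.174% (0.102 to 0.298%) of the plus-strand peaks. The plus-strand shares follow from how the interval was chosen, so the strands are given side by side and not compared by a test. The number of minus-strand peaks that a stretch of this length would hold was not computed, so nothing is read from the empty strand.

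The flanks of equal length differed from each other. Before the interval, no library had a plus-strand peak, and EZH2 replicates 1 and 2 had 1 minus-strand peak each. After it, the plus strand held 4, 6, 3 and 10 peaks in EZH2 replicates 1 and 2 and SUZ12 replicates 1 and 2, and the minus strand 0 in each. In RefSeq's GRCm38.p6 gene order, the lncRNA gene Gm13010 precedes Hspg2 and Ldlrad2 and Usp48 follow it. The downstream peaks were not assigned to a gene here, since the annotation is of another build.

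Hspg2 was compared with the other windows of 50 kb that led the series, the 10 in which the library with the fewest peaks had the most. The Hspg2 window held 9, 7, 8 and 8 peaks. Of the 16871 stranded windows that held a peak, it alone (0.00593%) had at least 7 in each library. The choice of Hspg2 used this. By total it tied at 32 peaks with 125050001 to 125100000 on the plus strand of chromosome 6, which held 4, 8, 11 and 9. By the sum of absolute differences over the 4 libraries, the most similar window was 109150001 to 109200000 on chromosome 8, plus strand, with 6, 6, 6 and 8 peaks and a sum of 6. Next came the minus strand of chromosome 15 at 98650001 to 98700000 and 87550001 to 87600000 on the plus strand of chromosome 8, each with a sum of 7. Another 3 windows tied with a sum of 8. They were 134900001 to 134950000 on the plus strand of chromosome 7, 86400001 to 86450000 on the plus strand of chromosome 8, and 71650001 to 71700000 on the minus strand of chromosome 1, which held 10, 3, 7 and 6 peaks and is not among the 10 leading windows.

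The lowest FDR of the Hspg2 window lay inside the range of the other leading windows. It was 8.21e-11, beside 1.10e-36 to 1.01e-07 in the other 9, with a median of 2.91e-10. Pooled over the libraries, the median FDR of the Hspg2 window was 0.000833, weaker than in each of the other 9. Those ran from 1.47e-08 to 0.000691. By library, the median FDR of the window was weaker than that of 5, 7, 4 and 4 of the other 9 windows in EZH2 replicates 1 and 2 and SUZ12 replicates 1 and 2. Its median width was 97, 99, 118.5 and 155.5 bp, where the other 9 ranged from 99 to 198.5, 98 to 204.5, 118 to 197 and 81 to 158 bp. In EZH2 replicate 1 the Hspg2 window was thus narrower than each of the other 9. It was near the narrow end in EZH2 replicate 2 and SUZ12 replicate 1. In SUZ12 replicate 2 it was near the wide end, where 8 of the other 9 were narrower. Pooled over the libraries, its median width was 118.5 bp, below the 127 to 160.5 bp of the other 9. These ranges over windows are descriptions and were not tested, and the tests over libraries are those given above.

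Recurrence in the Hspg2 window was near the middle of the leading windows. Of its 23 sites, 6 (26.1%) had peaks in at least 2 libraries, where the other 9 windows had 15.8 to 46.7% with a median of 25%. Of its peaks, 46.9% lay at such sites, against 33.3 to 71.4% with a median of 44.8%. It had 1 site in all 4 libraries, and the others had 0 to 3. Its opposite strand was empty, as in 6 of the other 9, and the highest number of opposite-strand peaks was 10, on chromosome 6 at 122650001 to 122700000.

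**Figure D4:**
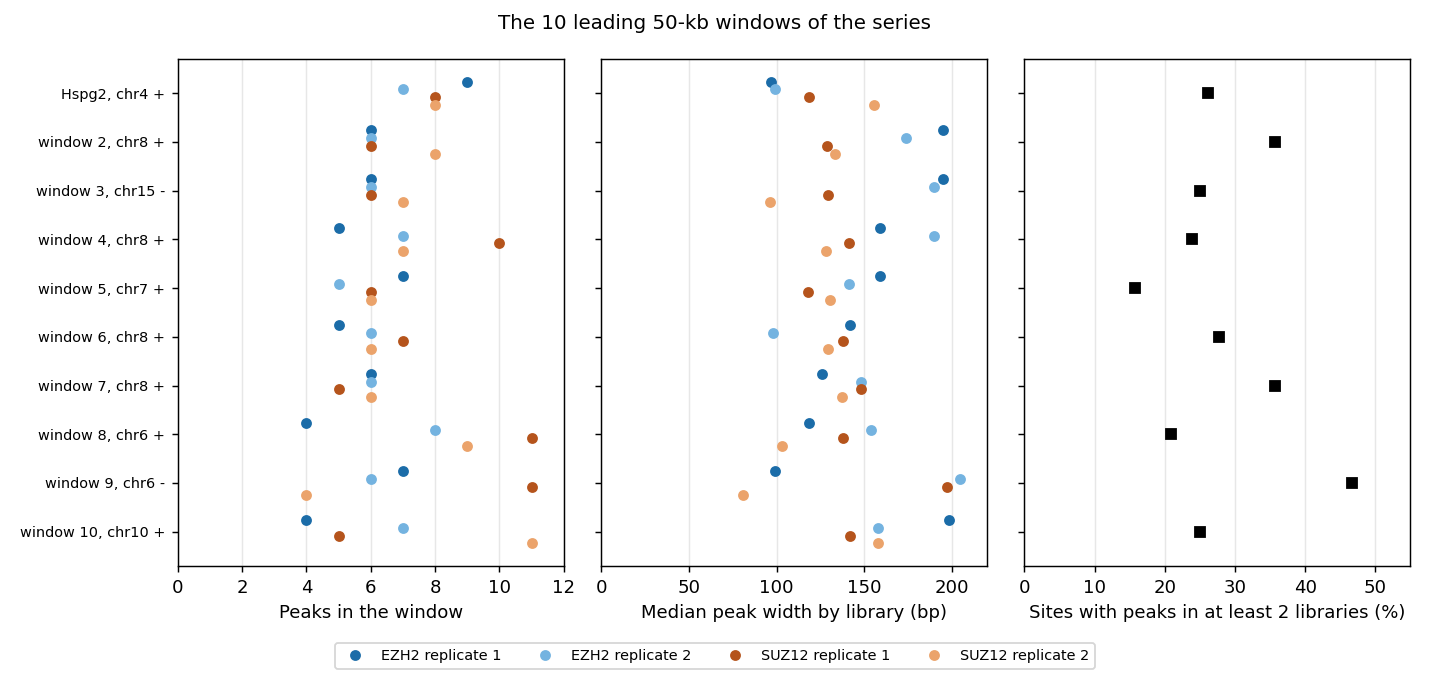
Rows are the 10 leading windows of 50 kb with their chromosome and strand, Hspg2 at the top. The panels give the number of peaks per library, the median peak width per library in bp, and the percent of sites with peaks in at least 2 libraries; Hspg2 has 7 to 9 peaks per library, median widths of 97 to 155.5 bp and 26.1% recurring sites.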

How the data were processed

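The files were 8 peak lists, 1 per dCLIP library and strand, not pooled over libraries. Each gave a peak's mm9 start, end and summit, and its FDR, a p-value adjusted by the authors' peak caller. Peak names carry the prefix of PeakRanger, per the file contents, and for its settings and any use of the mock library nothing is given in the sources used here. Per the submitters' processing notes, which give no roles, the tools included TopHat2 2.0.8, Trim Galore 0.3.3, bedtools 2.17.0 and SAMtools 0.1.18, and the build was mm9. No mm9 sequence or annotation was used, so peaks were not placed in exons or introns, no sequence is shown, and the planned list of other basement membrane genes was not analysed here. Starts are counted from 1 and summits are as deposited. Overlapping peaks (at least 1 bp, same strand) were chained into sites. Tests ran over libraries, never over peaks, and 4 tests were adjusted by the Benjamini-Hochberg method with a threshold of 0.05. Sites of at least 2 libraries, the strongest and widest peak per library and the comparison windows were named by rule; the narrowest peak, the peak-poor stretches and the 40-kb boundary were singled out after the values were seen. Peak lists do not show read depth, so Wilson intervals at 95% rest on numbers of peaks, and a count of 0 is given a limit of 3 counts. The members and lists were chosen with earlier results of these data known. Python 3.11.15, NumPy 2.4.6, pandas 2.3.3 and SciPy 1.17.1 were used, and the site and test steps were tested on simulated data. PRO-seq libraries were not analysed here.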

Additional observations from a re-analysis of the deposited data

How the results depend on the processing

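Sites in at least 2 libraries numbered 10. They were 5 of 53 (9.43%) with a reciprocal overlap of 50%, beside 5.49% over the series. In the better 50% of each list by FDR they were 4 of 34 (11.8%), beside 8.44%. With a library left out they were 5 to 7, or 13.5 to 18.9% of sites, beside 6.31 to 6.75%. With summits within 100 bp they were 9 of 49 (18.4%), beside 6.67%. Of the 59 peaks, 39 were in the better 50% of each list by FDR. The width against the rest kept its sign in all 9 alternatives, at -0.54 to -0.24 with a library left out. The FDR against the rest kept it in 8 of 9, at 0.329 to 0.686 with a library left out. The difference was positive in every library, so leaving a library out could not turn the sign. The mean difference turned to -0.234 against the other 9 leading windows, where the libraries split. The summit position between proteins turned to 0.255 kb in the better 50% of each list by FDR and ran from -8.79 to 6.06 kb with a library left out. The width between proteins kept its sign in all 8 alternatives, at 0.30 to 0.46 with a library left out. The library medians did not overlap between the proteins, so leaving a library out could not turn the sign. The 8 also include the replicate block given below, which cannot move the value. The causes were not tested. The labels give replicate numbers, and each library came from a clone of its own. With the replicate number as a block, the width difference was 0.38 (exact sign-flip permutation p = 0.5, smallest possible) and the position difference -1.36 kb (p = 1, exact permutation). Over 846 stranded windows of 1 Mb, deviations of same-numbered libraries correlated at 0.117, a description from lists of unequal length. None of the 4 tests could reach 0.05 with 4 libraries, so differences between the proteins at Hspg2 were not detectable with these lists.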

Other observations

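In EZH2 replicate 2, 3 of the 12 Hspg2 peaks had their summit at the deposited start of the peak, and no Hspg2 peak of the other libraries did. Over the full plus-strand lists this held for 480 peaks of EZH2 replicate 1 (8.93%), 764 of EZH2 replicate 2 (11.4%), 27 of SUZ12 replicate 1 (0.454%) and 66 of SUZ12 replicate 2 (0.884%), and for 0 peaks in each minus-strand list. Summits at the end of a minus-strand peak numbered 6, 5, 0 and 5 in the same order. Placement of Hspg2 peaks by overlap gave the same 59.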
